A study of Bos taurus with 8 samples.

Results

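The insulin-like growth factor (IGF) system was examined through 10 listed mRNA, chosen by gene symbol from a table of 13861 genes. The list holds the ligands IGF1 and IGF2, the receptors IGF1R, IGF2R and INSR, and the binding proteins IGFBP2 to IGFBP6. Each of the 10 was found, on 1 row each. RNA was sequenced from corpora lutea (CL) of 8 Holstein heifers, each CL from a separate animal slaughtered on day 17 after estrus. Of these heifers 4 were unbred and in the estrous cycle (replicates 1, 2, 3 and 4), and 4 had been bred and were pregnant (replicates 1, 2, 4 and 5). The CL were snap frozen, and neither the age of the heifers nor the part of the CL that was sampled is given in the labels. The comparison of the groups asks which luteal mRNA differ when the CL is rescued by pregnancy.

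IGF1 and IGF2 are small secreted peptides related to insulin. Both act mainly through IGF1R, a tyrosine kinase receptor whose relative INSR binds insulin and, in one splice form, IGF2, while IGF2R has no kinase and carries IGF2 to lysosomes for breakdown. The binding proteins hold the ligands in tissue fluid and blood, and can restrain them or deliver them to the receptors. In ruminant CL, IGF are known as local stimulators of progesterone synthesis and survival, and growth hormone acts on luteal cells through its own receptor.

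Values are normalized counts, meaning reads scaled by a single factor per CL. The CL held 42770725 to 48294165 reads in genes, and the member with the fewest reads in any CL had 147, so counting error was small beside the differences between animals. Values of different genes were not divided by transcript length, so levels were compared between CL for 1 gene and not between genes. A fold change is the difference of mean log2(normalized count + 1), pregnancy minus cycle, from limma's trend fit over all genes with Benjamini-Hochberg adjustment. A gene was called at an adjusted p under 0.05. The exact two-sided permutation test over the 70 labelings of the 8 CL was run on single members, and the smallest p it allows is 0.0286. In whole tissue, fewer cells of a type and less RNA per cell cannot be told apart.

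The tissue carried the mRNA of a CL in both groups. The sum of 7 markers of luteal steroidogenic cells, among them STAR, CYP11A1 and HSD3B1, ran from 1492420 to 1801060 normalized counts in the cycle and from 1611970 to 2344430 in pregnancy. Of 8 stromal markers such as DCN and COL1A1 the sum was 687933 to 1047650 in the cycle and 642422 to 821030 in pregnancy, and that of 8 endothelial markers was 78485 to 95130 and 71086 to 98617. The sum of 10 leukocyte markers was 9090 to 15550 and 10841 to 19435, and that of 7 pericyte and smooth muscle markers 67546 to 82714 and 63821 to 89417. The sum of 6 granulosa cell markers was 6249 to 16597 in the cycle, with the highest value in replicate 2, and 5146 to 6467 in pregnancy. Of 5 liver markers, 4 were at 85 or fewer reads in every CL and APOA1 held the rest of their sum.

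None of the 10 members was called between the groups, against 3 of all genes, or 0.0216%. The adjusted p of the members ran from 0.626 to 0.997 in limma, and edgeR, limma-voom and DESeq2 on recovered reads called 0 as well. At an unadjusted p under 0.05 there was 1 member, IGF2, or 1 of 10, where 7.51% of all genes were past this mark. The groups overlapped in each of the 10 members, while they did not overlap in 2.27% of all genes toward lower and in 2.03% toward higher abundance in pregnancy. Log2 fold changes were above 0 for 5 members and below 0 for 5. Their median was 0.01 beside 0.0005 over all genes, and their median size without sign was 0.154 beside 0.155 over all genes.

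**Figure D1:**
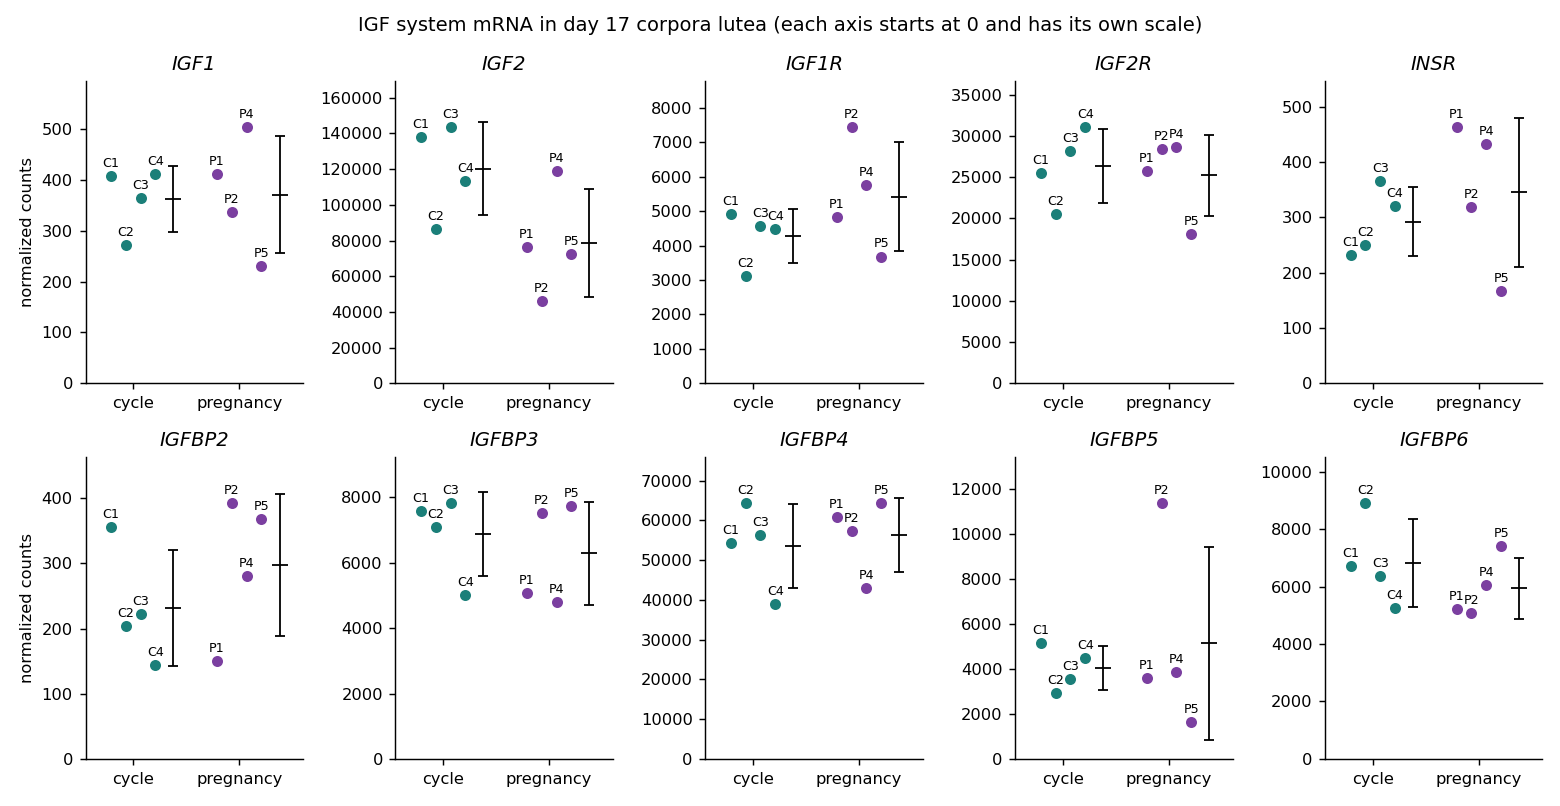
Normalized counts of the 10 members in each CL, with 1 panel per mRNA and C or P and a number for group and replicate; bars are the mean and SD of 4 CL. The 2 groups overlap in every panel, IGF2 is below every cyclic CL in 3 of 4 CL of pregnancy, and IGFBP5 spreads from 1658 to 11376 in pregnancy.

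Of the 2 ligands, IGF2 (ENSBTAG00000013066) was the member with the lowest p. IGF2 is the fetal growth peptide that also persists in adult ruminant tissues. It had 137942, 86473, 143572 and 113141 normalized counts in replicates 1 to 4 of the cycle. In replicates 1, 2, 4 and 5 of pregnancy it had 76566, 46179, 118982 and 72212. Pregnant replicates 1, 2 and 5 lay below every CL of the cycle, while pregnant replicate 4 lay above cyclic replicates 2 and 4. The cyclic mean was 120282 ± 26130.4 and the pregnant mean 78485 ± 30148 (SD, n = 4 each). The log2 fold change was -0.67 (SE 0.27, 95% interval -1.26 to -0.07), with a limma adjusted p of 0.626 and an unadjusted p of 0.0316. By exact permutation the p was 0.0857. When 1 CL was left out the fold change ran from -0.90 to -0.44, nearest to 0 without pregnant replicate 2 and farthest without pregnant replicate 4. In the summed stromal markers pregnant replicate 4 (821030) and then replicate 1 (776106) were highest of their group, as they were for IGF2, and replicates 2 and 5 came in the opposite order. In the cycle replicate 3 was highest in both (1047650), and the order of the others differed. COL1A1, COL1A2 and COL3A1 had the most counts in this sum. In pregnant replicate 4 they, DCN and PDGFRA were highest of their group. LUM (62627) and FBLN1 (9693) were lowest of their group there, and POSTN was neither highest nor lowest. The summed endothelial markers had the same order of CL as IGF2 in both groups. They were 92177, 78485, 95130 and 86935.5 in cyclic replicates 1 to 4. In pregnant replicates 1, 2, 4 and 5 they were 86956.5, 71086, 98617 and 83839. No single endothelial marker had this order of CL in both groups. KDR, with the most counts of that list, was highest in cyclic replicate 4 (40154) and lowest in cyclic replicate 1 (33534). DCN, 1 of the stromal markers, was lower in each pregnant CL than in every cyclic CL, as were the granulosa cell markers INHA and FSHR, and their log2 fold changes were -0.41, -1.07 and -0.77 (limma adjusted p = 0.550, 0.508 and 0.587). In DESeq2 the adjusted p of INHA was 0.0250 and those of DCN and FSHR were 0.162 and 0.202. Of all genes, 2.27% did not overlap toward lower abundance in pregnancy. The other stromal and granulosa cell markers overlapped between the groups. Their log2 fold changes were below 0 except for FOXL2 (0.42), CYP19A1 (0.15) and POSTN (0.02). The leukocyte marker CD2 did not overlap toward higher abundance in pregnancy (log2 fold change 0.55, limma adjusted p = 0.576), where 2.03% of all genes did the same. All other leukocyte markers overlapped between the groups. CD68, CD14, CSF1R and ITGAM had log2 fold changes below 0 (-0.18, -0.21, -0.10 and -0.25). Those of PTPRC, CD3E, CD3D, CD163 and NKG7 were above 0 (0.28, 0.55, 0.44, 0.25 and 0.07). Cyclic replicate 2, which had the highest INHA (11830.1) and the highest sum of granulosa cell markers of the 8 CL, had the lowest IGF2 of its group. The part of these cell types in the IGF2 values was not tested.

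IGF1 (ENSBTAG00000011082), which in other organs is a main mediator of growth hormone, was nearly equal in the group means. It had 408, 271, 364 and 411 normalized counts in the CL of the cycle. In those of pregnancy it had 412, 337, 504 and 231. The lowest and the highest of the 8 CL were both of pregnancy, replicate 5 and replicate 4. The cyclic and pregnant means were 363 ± 65.1 and 371 ± 116 (SD, n = 4 each), and the log2 fold change was -0.01 (SE 0.25, 95% interval -0.56 to 0.55), with a limma adjusted p of 0.997. The interval spans ratios of 0.678 to 1.46 between pregnancy and cycle, so the values of 4 CL a group do not exclude a difference inside it. It is not a limit of detection. Its direction turned when single CL were left out, from -0.17 without pregnant replicate 4 to 0.20 without pregnant replicate 5.

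Among the receptors, IGF1R (ENSBTAG00000021527) had a greater mean in pregnancy, which did not pass the test. It had 4915, 3130.4, 4584 and 4480.1 normalized counts in the cycle. In pregnancy it had 4824, 7445, 5751 and 3683. Pregnant replicates 2 and 4 exceeded the whole range of the cycle, and cyclic replicate 2 was the lowest of the 8 CL, but pregnant replicate 5 was below 3 of the 4 CL of the cycle. The cyclic and pregnant means were 4278 ± 787 and 5426 ± 1589.8 (SD, n = 4 each), with a log2 fold change of 0.32 (SE 0.21, 95% interval -0.16 to 0.79) and a limma adjusted p of 0.742. Without pregnant replicate 2 the log2 fold change was 0.15, with 0.17 without cyclic replicate 2 and 0.49 without pregnant replicate 5.

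INSR (ENSBTAG00000012687), the insulin receptor, had its widest spread in pregnancy. It was measured at 232, 250.2, 367 and 319.9 normalized counts in the cyclic CL and at 463, 319, 432 and 167 in the pregnant CL. Pregnant replicates 1 and 4 were the 2 highest CL and pregnant replicate 5 was the lowest of the 8. Limma gave a log2 fold change of 0.16 (SE 0.32, 95% interval -0.54 to 0.87), with an adjusted p of 0.916, and it was 0.48 without pregnant replicate 5 and -0.01 without pregnant replicate 1.

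IGF2R (ENSBTAG00000002402), the cation-independent mannose 6-phosphate receptor that clears IGF2, had nearly equal means. Its values were 25518, 20494, 28209.7 and 31068 normalized counts in the cyclic CL and 25781, 28359.7, 28601 and 18073 in the pregnant CL. Pregnant replicates 1, 2 and 4 lay inside the range of the cycle, and replicate 5 was the lowest of the 8 CL. The cyclic and pregnant means were 26322 ± 4498 and 25204 ± 4922 (SD, n = 4 each), with a log2 fold change of -0.07 (SE 0.17, 95% interval -0.45 to 0.31) and a limma adjusted p of 0.941. The interval spans ratios of 0.731 to 1.24, and the log2 fold change ran from -0.18 without cyclic replicate 2 to 0.0825 without pregnant replicate 5.

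**Figure D2:**
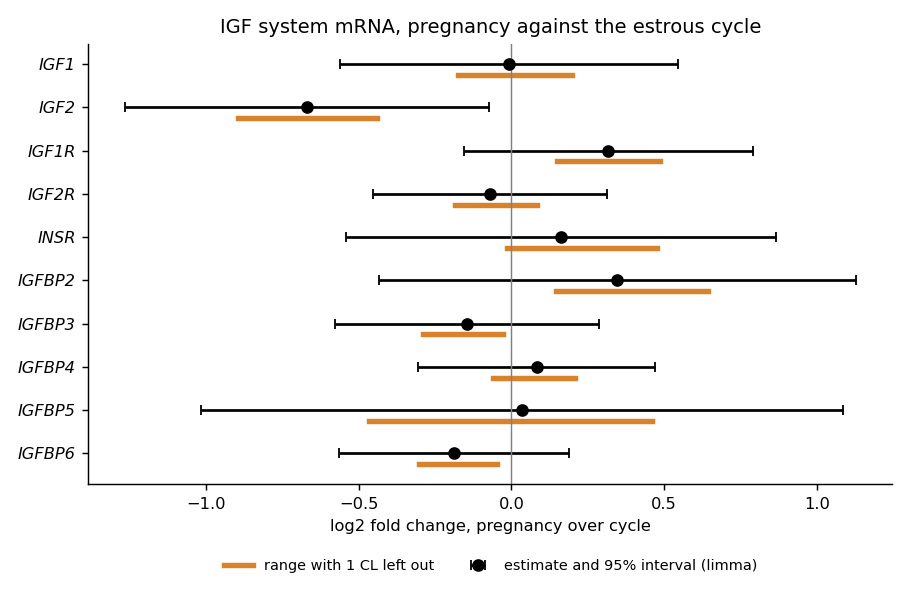
Log2 fold change of each member, pregnancy over cycle; points and black bars are the limma estimate and its 95% interval, and orange bars the range of estimates when 1 CL is left out. The interval of IGF2 lies below 0 before adjustment over all genes, those of the other 9 members hold 0, and the orange bars of IGF1, IGF2R, INSR, IGFBP4 and IGFBP5 cross 0.

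Among the binding proteins, IGFBP5 (ENSBTAG00000007062), which binds to extracellular matrix and has been tied to tissue remodeling, was the most variable member in pregnancy. It had 5135, 2939, 3536 and 4499 normalized counts in the cycle. In pregnancy it had 3607, 11376, 3879.5 and 1658. The highest and the lowest of the 8 CL were thus both of pregnancy, 6.86-fold apart, while the CL of the cycle were 1.75-fold apart. The coefficient of variation was 24.3% in the cycle and 83.4% in pregnancy, and the difference between these spreads was not tested. The cyclic and pregnant means were 4027 ± 979 and 5130.2 ± 4279.9 (SD, n = 4 each), with a log2 fold change of 0.03 (SE 0.47, 95% interval -1.02 to 1.08) and a limma adjusted p of 0.993. Without pregnant replicate 2 the log2 fold change was -0.46 and without pregnant replicate 5 it was 0.46, so the direction rests on single CL. In edgeR and DESeq2 on recovered reads the log2 fold change was 0.35 in both.

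IGFBP2 (ENSBTAG00000005596), a binding protein with preference for IGF2, had the largest coefficient of variation of the 10 members in the cycle, 38.5%. It was measured at 355, 204, 222 and 144 normalized counts in the cyclic CL and at 151, 393, 281 and 368 in the pregnant CL. Cyclic replicate 1 lay among the high CL of pregnancy, and pregnant replicate 1 lay next to the lowest CL of the cycle. Limma gave a log2 fold change of 0.35 (SE 0.35, 95% interval -0.43 to 1.13), with an adjusted p of 0.831, and it ran from 0.15 without cyclic replicate 4 to 0.64 without pregnant replicate 1.

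IGFBP3 (ENSBTAG00000003994), the main carrier of IGF in blood, had a high and a low range of values in both groups. Its values were 7578, 7109.9, 7836 and 5028 normalized counts in the cyclic CL and 5089, 7523, 4790.3 and 7739 in the pregnant CL. Cyclic replicate 4 and pregnant replicates 1 and 4 were between 4790 and 5089, and the other 5 CL were between 7110 and 7836. The log2 fold change was -0.15 (SE 0.19, 95% interval -0.58 to 0.29), with a limma adjusted p of 0.873, and it ran from -0.29 without cyclic replicate 4 to -0.026 without pregnant replicate 4.

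IGFBP4 (ENSBTAG00000008611), mostly an inhibitor of IGF action and a marker of follicle fate in cattle, had nearly equal means. It was measured at 54372, 64416, 56218 and 39003 normalized counts in the cyclic CL and at 60922, 57247, 43103 and 64333 in the pregnant CL. Cyclic replicate 4 and pregnant replicate 4 were the 2 lowest CL. Limma gave a log2 fold change of 0.08 (SE 0.17, 95% interval -0.30 to 0.47), with an adjusted p of 0.925, and it ran from -0.0611 without cyclic replicate 4 to 0.21 without pregnant replicate 4.

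IGFBP6 (ENSBTAG00000021467), which binds IGF2 far more tightly than IGF1, had a lesser mean in pregnancy that did not pass the test. Its values were 6697, 8913, 6350.2 and 5264 normalized counts in the cyclic CL and 5223, 5088, 6037 and 7406 in the pregnant CL. Pregnant replicates 1 and 2 were below every CL of the cycle, by a small margin from cyclic replicate 4. The log2 fold change was -0.19 (SE 0.17, 95% interval -0.56 to 0.19), with a limma adjusted p of 0.811, and leaving out cyclic replicate 2 gave -0.05 while leaving out cyclic replicate 4 gave -0.30. For IGFBP2, IGFBP3, IGFBP4, IGFBP5 and IGFBP6 the exact permutation p was 0.4, 0.6, 0.629, 0.914 and 0.4, and for IGF1, IGF1R, INSR and IGF2R it was 1, 0.286, 0.743 and 0.714.

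Several members were at their extremes in the same CL. In cyclic replicate 2, IGF1, IGF2, IGF1R, IGF2R and IGFBP5 were the lowest of their group, and IGFBP4 and IGFBP6 were the highest. In pregnant replicate 5, IGF1, IGF1R, IGF2R, IGFBP5 and INSR were the lowest of their group, and IGFBP3, IGFBP4 and IGFBP6 were the highest. Deviations from the group mean had the same sign in these 2 CL for 9 of 10 members, with IGFBP2 as the exception. For the other 15 pairs of 1 CL from each group the number was 1 to 7 of 10. This pair was chosen after the values were seen, so it is a description with no test. Over all genes, deviations had the same sign in 64.7% of genes for this pair and in 40.6 to 57.4% for the other 15, so the likeness extended beyond the IGF system. These CL also had the highest sums of luteal steroidogenic markers in their groups, 1801060 in cyclic replicate 2 and 2344430 in pregnant replicate 5. Of these markers, STAR and HSD3B1 were highest of their group in both CL, and FDX1 in pregnant replicate 5 only. LHCGR, SCARB1, CYP11A1 and OXT were highest in neither, and LHCGR in pregnant replicate 5 (12126) was the lowest of all CL. The part of cell makeup was not tested. With both CL left out, 0 members were called and the log2 fold change was -0.80 for IGF2 and 0.34 for IGF1R.

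**Figure D3:**
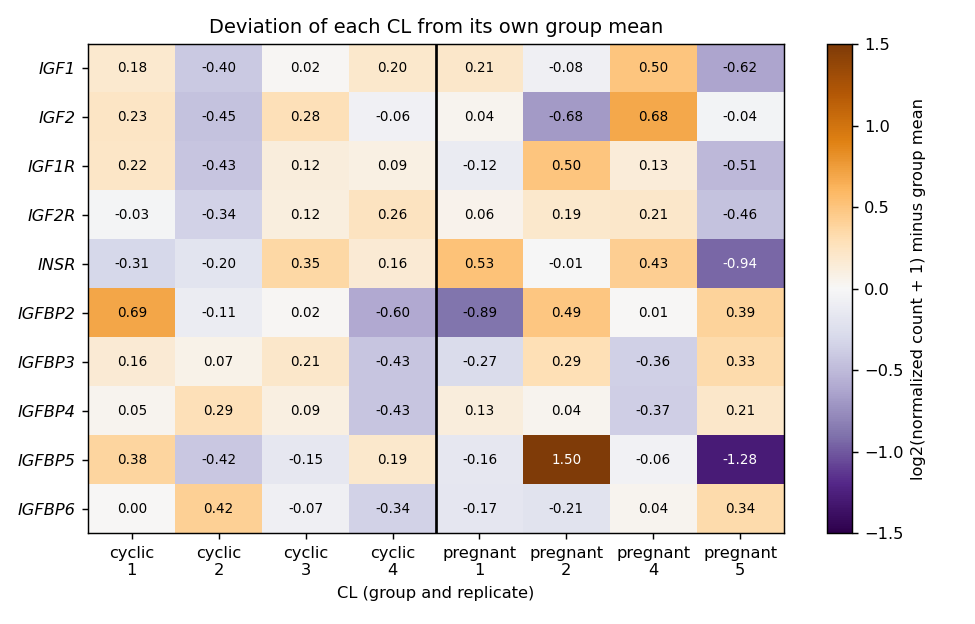
Deviation of each CL (columns) from the mean of its own group for each member (rows), on the log2(normalized count + 1) scale; purple is below and orange above the group mean. Cyclic replicate 2 and pregnant replicate 5 are below the mean in IGF1, IGF1R, IGF2R, INSR and IGFBP5 and above it in IGFBP4 and IGFBP6, and the widest deviations are those of IGFBP5 in pregnant replicates 2 and 5.

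Correlations over the 8 CL were computed for the 45 pairs of members, and 0 pairs passed after adjustment over the 45 by either measure. At an unadjusted exact permutation p under 0.05 there were 8 pairs by Pearson's r and 3 by Spearman's rho. The pair with the smallest p was IGF1 and IGF2R (r = 0.84, exact permutation p = 0.0117, adjusted p = 0.209; rho = 0.67, p = 0.0831, adjusted p = 0.398). Without cyclic replicate 2 and pregnant replicate 5, r was 0.02. In each pair the 2 CL left out were those farthest from the median of the first member. This narrows its range and can itself lower r. IGF1R and IGFBP5 had r = 0.82 (exact permutation p = 0.0213, adjusted p = 0.209) and rho = 0.79 (p = 0.0279, adjusted p = 0.398), and r was 0.73 without cyclic replicate 2 and pregnant replicate 2. IGF1R and IGFBP6 had r = -0.79 (exact permutation p = 0.0214, adjusted p = 0.209) and rho = -0.69 (p = 0.0694, adjusted p = 0.398), and r was -0.43 without the same 2 CL. A group of 4 CL is too small for a correlation of its own.

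Around the 10 members, 6 lists of genes that make, release, transmit or restrain the signal named 62 genes, of which 53 were in the table. Of these 0 were called in limma, edgeR or limma-voom and 1 was called in DESeq2 on recovered reads. At an unadjusted p under 0.05 there were 4 of the 53, near the 7.51% of all genes. All 4 had greater values in pregnancy, and the median log2 fold change of the 53 was 0.002 beside 0.0005 over all genes. PAPPA and the receptor substrates IRS1, IRS2 and IRS4 were among the 9 genes with no row and were not analysed here.

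The groups did not overlap in 1 of the 53, toward higher abundance in pregnancy, where 2.03% of all genes did the same. It was STAT5A (ENSBTAG00000009496), among the 8 genes on the insulin and growth hormone side. STAT5A is a transcription factor activated by the receptors of growth hormone and prolactin. It was measured at 2121, 2194, 2363 and 2303 normalized counts in the cyclic CL and at 2739, 2957, 2685 and 2958 in the pregnant CL, with the lowest CL of pregnancy above the highest of the cycle. Limma gave a log2 fold change of 0.34 (SE 0.08, 95% interval 0.16 to 0.52), with an adjusted p of 0.485. In DESeq2 the adjusted p was 0.0179, where 94 genes or 0.723% of those with an adjusted p were called. Over all other alternatives its adjusted p ran from 0.464 to 0.779. GHR (ENSBTAG00000001335), the growth hormone receptor, was measured at 5554, 5107, 4599.8 and 5926 in the cyclic CL and at 6574, 6549.5, 6238 and 5649.9 in the pregnant CL. The groups overlapped through pregnant replicate 5, and the log2 fold change was 0.24 (SE 0.10) with a limma adjusted p of 0.626. CISH, a feedback inhibitor induced by STAT5, had a log2 fold change of 0.33 (SE 0.30) with a limma adjusted p of 0.806, and leaving out cyclic replicate 2 gave 0.0319 while leaving out cyclic replicate 3 gave 0.58. Of the 8, 6 were above 0 and 2 below.

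Of 7 proteases of binding proteins and their inhibitors, 3 were above 0 and 4 below. Cathepsin D (CTSD, ENSBTAG00000007622), a lysosomal protease that can cut binding proteins, was measured at 51248, 56847, 51728 and 47730.5 normalized counts in the cyclic CL and at 55308, 61077, 63667 and 68360.2 in the pregnant CL. Pregnant replicate 1 lay below cyclic replicate 2, and the other 3 CL of pregnancy lay above every CL of the cycle. Its log2 fold change was 0.26 (SE 0.10), with a limma adjusted p of 0.622. Stanniocalcin 1 (STC1), an inhibitor of the pappalysin protease that cuts IGFBP4, had a log2 fold change of 0.27 (SE 0.19), and the protease HTRA1 had -0.18 (SE 0.13), with limma adjusted p of 0.752 and 0.761. Without cyclic replicate 4 STC1 was at 0.12, and without cyclic replicate 3 HTRA1 was at -0.0712.

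Of 4 genes for other binding proteins or the acid-labile subunit, 1 was above 0 and 3 below. IGFBP7, a related protein of low affinity for IGF, averaged 75003 ± 9529 normalized counts (SD, n = 4) in cyclic CL and 67015 ± 7830.2 (SD, n = 4) in pregnant CL, with a limma adjusted p of 0.773. IGFALS, the subunit that joins IGFBP3 and IGF in blood, averaged 149.5 ± 33.2 and 184 ± 56.1 in the same order, with a limma adjusted p of 0.830. Their log2 fold changes of -0.16 (SE 0.12) and 0.27 (SE 0.27) became -0.0762 without cyclic replicate 3 for IGFBP7 and 0.11 without pregnant replicate 2 for IGFALS. IGFBP1, the insulin-regulated binding protein of liver, had 100 reads in cyclic replicate 1 and 1 to 4 reads in each of the other 7 CL (limma adjusted p = 0.777).

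Of 9 receptor adaptors and inhibitors, 2 were above 0 and 7 below, and 0 had an unadjusted p under 0.05. The phosphatase PTPN1, which switches off INSR and IGF1R, had a log2 fold change of -0.22 (SE 0.13), the RAS activator SOS1 one of -0.24 (SE 0.16), and the phosphatase PTPN11 one of 0.17 (SE 0.13), with limma adjusted p of 0.701, 0.750 and 0.780. PTPN1 was at -0.13 without cyclic replicate 1, and PTPN11 at 0.11 without cyclic replicate 2. Of 23 genes from PI3-kinase to AKT, mTOR and FOXO, 15 were above 0 and 8 below, with a median of 0.04. The kinase GSK3B, which AKT inhibits, was measured at 3038, 2416, 2958 and 3089 normalized counts in the cyclic CL and at 3868, 3801, 3558 and 2859.9 in the pregnant CL. Its log2 fold change was 0.29 (SE 0.12), with a limma adjusted p of 0.634. Pregnant replicate 5 lay below 3 CL of the cycle and the other 3 CL of pregnancy lay above every CL of the cycle. The mTOR activator RHEB had a log2 fold change of -0.18 (SE 0.09) and the PI3-kinase subunit PIK3R1 one of 0.40 (SE 0.21), with limma adjusted p of 0.680 and 0.684. Without pregnant replicate 4 PIK3R1 was at 0.23, and without pregnant replicate 5 at 0.59. IGF2BP3 and IGF2BP2, which bind the mRNA of IGF2, were at 4 to 63 reads in each CL, with log2 fold changes of -1.04 (SE 0.69) and -0.08 (SE 0.61), and limma adjusted p of 0.741 and 0.984. IGF2BP3 was at -0.55 without pregnant replicate 2, and IGF2BP2 ran from -0.71 without cyclic replicate 4 to 0.18 without cyclic replicate 2.

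**Figure D4:**
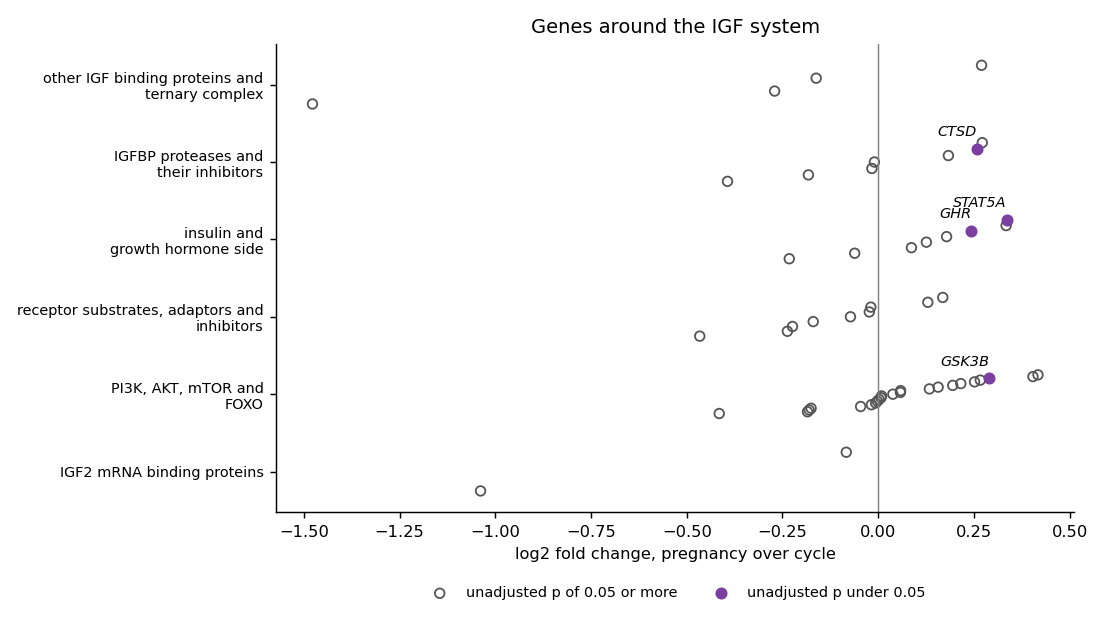
Log2 fold change, pregnancy over cycle, of the 53 genes around the IGF system, in 6 rows by role; filled points had an unadjusted p under 0.05 in limma. The 4 filled points, CTSD, GHR, STAT5A and GSK3B, lie between 0.24 and 0.34, and the widest value, -1.48, is that of IGFBP1, which rests on cyclic replicate 1.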

How the data were processed

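RNA from 8 CL, 1 per heifer, was sequenced by a strand-specific protocol, and per the labels the RNA quality index was above 9 in each. The values are signal: each deposited value is a number of reads that the authors scaled by a single factor per CL. The aligner, the counting tool, the build and the gene models used were not given in the sources used here, so no coordinates are printed. Dividing by the smallest value of a CL gave whole numbers (to 0.01) for 99.9% of entries, taken as reads, and 1 read was worth 0.920 to 1.09 normalized counts. Of read numbers from 2 to 9, 71.4 to 77.2% were even. With this excess of even numbers, the recovered reads may not all be independent counts, and the reason was not tested. Pairs of CL differed by a chi-square of 61.0 to 138 per degree of freedom, so no library was present more than once.

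All 8 CL entered the fit of log2(value + 1) with limma 3.58.1 (trend, R 4.3.3), without covariates, for genes with a mean of at least 1, adjusted over 13861 genes. Alternatives were other pseudocounts and filters, quantile normalization, a replicate block, leaving out each CL, and edgeR 4.0.16, DESeq2 1.42.0 and limma-voom on recovered reads. The fits were tested on simulated data. Permutations and correlations used Python 3.11.15 and scipy 1.17.1. Every member is named and, from each list of related genes, up to 3 with the smallest p. The members and lists were chosen with earlier results of these data known.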

Additional observations from a re-analysis of the deposited data

Results flagged for a closer look

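IGFBP1, the insulin-regulated binding protein, stood far from the other CL of its group in cyclic replicate 1, with 109 normalized counts from 100 reads. The other CL of the cycle had 3.86, 0.988 and 0.981 normalized counts, and the gap to the nearest was 0.973 of the range of the group. The CL of pregnancy had 0.959 to 2.15. Over 27 genes in 2 groups 54 sets of 4 values were examined in this way. Of these 1 stood out, which is no more than the about 1 in 20 that chance gives. The cell type markers were not among the 27 genes.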

How the results depend on the processing

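Values from 1 to 100 reads (IGFBP1, IGF2BP2, IGF2BP3) are imprecise in a single CL. Of all genes, 3 were called, and the number was 1041 unadjusted, 0 with the replicate block, 1 in edgeR, 94 in DESeq2, 1 in limma-voom, and 1 to 4 when 1 CL was left out. With cyclic replicate 2 and pregnant replicate 5 both left out, an alternative chosen after seeing the data, it was 1. Members called were 0 in each alternative except the unadjusted one, where IGF2 made 1. Of 180 member values over 18 alternatives, 162 kept their direction, and IGF2, IGF1R, IGFBP2, IGFBP3 and IGFBP6 kept it in all 18. IGF1 (-0.01) was 0.0161 with quantile normalization, 0.21 with the block, 0.0307 in edgeR, 0.0308 in DESeq2, 0.0107 in limma-voom and 0.0663 without both CL. IGF2R was 0.12 and IGF2BP2 0.0712 with the block, and IGF2BP2 was 0.15 without both CL. With 1 CL left out, log2 fold changes ran from -0.17 to 0.20 for IGF1, -0.18 to 0.0825 for IGF2R, -0.0611 to 0.21 for IGFBP4, -0.46 to 0.46 for IGFBP5, -0.0131 to 0.48 for INSR and -0.71 to 0.18 for IGF2BP2. The causes were not tested. Groups shared the replicate numbers 1, 2 and 4, but same-numbered CL did not deviate together (correlations 0.02, -0.05 and 0.01), so the numbers were not taken as pairs. With the numbers as a block, fold changes come from replicates 1, 2 and 4 only. Cyclic replicate 3 and pregnant replicate 5 have no partner and add nothing to them. In that fit IGF2 was -0.56, IGF1R 0.53, INSR 0.59 and IGFBP5 0.41 with 0 members called.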

Other observations

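Of the 45 ratios between 2 members, 1 did not overlap between the groups, that of IGF1R to IGF2. For single genes, 2.27% of all genes did not overlap toward lower and 2.03% toward higher abundance in pregnancy. The share among ratios of other genes was not computed, and the 45 ratios share members and are not independent. Whether 1 of 45 is an excess was therefore not tested. Per 1000 normalized counts of IGF2, IGF1R had 35.6, 36.2, 31.9 and 39.6 in the CL of the cycle and 63.0, 161, 48.3 and 51.0 in those of pregnancy. The ratio was chosen after the values were seen and has no test, and it holds no transcript lengths, so it is compared between CL only.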
